A study of Mus musculus with 6 samples.

Results

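The branched-chain amino acid breakdown genes described here were 10 genes chosen by symbol, Bcat1, Bcat2, Bckdha, Bckdhb, Dbt, Ivd, Mccc1, Mccc2, Pcca and Pccb, out of 46095 genes in the count table. The RNA came from primary renal tubular epithelial cells (PTECs) isolated from the kidneys of 10-week-old mice on a C57 background, with 1 library a sample. Of these, 3 carried the label VHL-KO (replicates 1, 2 and 4) and 3 the label VHL-KO;SETD2-KO (replicates 2, 3 and 4). In both groups Cre recombinase under the Cdh16 (Ksp-cadherin) promoter acts on floxed alleles of Vhl, the ubiquitin ligase subunit that marks hypoxia-inducible factors for degradation, and in the second group floxed alleles of Setd2, the enzyme that trimethylates histone H3 at K36, are targeted as well. No library of a mouse with intact Vhl was compared, so each difference below is between Vhl-deleted cells with and without targeting of Setd2. The comparison asks how expression of this pathway differed when Setd2 was targeted as well. Recombination depends on where Cdh16 is expressed along the tubule, and cells isolated from a kidney need not all have recombined.

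Leucine, isoleucine and valine are broken down mainly in mitochondria. A branched-chain aminotransferase first moves the amino group to 2-oxoglutarate, and the branched-chain ketoacid dehydrogenase complex then commits the carbon skeleton by an irreversible oxidative decarboxylation. Leucine carbon goes on through isovaleryl-CoA dehydrogenase and the biotin enzyme methylcrotonyl-CoA carboxylase, whereas isoleucine and valine carbon reaches propionyl-CoA, which another biotin enzyme, propionyl-CoA carboxylase, passes towards succinyl-CoA. Proximal tubule cells are rich in mitochondria and use amino acids as fuel and as substrates for glucose synthesis.

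Before the genes themselves, 2 features of the libraries bear on every value. First, Setd2 counts did not follow the labels. Setd2 stood at 71.5, 73.9 and 12.3 CPM (counts scaled to library size, here with TMM factors from edgeR) under the VHL-KO label and at 79.6, 57.4 and 89.6 CPM under VHL-KO;SETD2-KO, a log2 difference of 0.52 (SE 0.64, adjusted p = 0.787) and 0.05 without VHL-KO replicate 4. The counts cover the whole gene and do not show the floxed exons separately, so groups are named by their labels throughout. Second, the library labelled VHL-KO replicate 4 stood apart. Its ranks of CPM over all tested genes correlated with those of the other libraries at Spearman's rho of 0.717 to 0.765, against 0.937 to 0.986 among the others, and mitochondrially encoded genes took 11.3% of its counts against 25.9% to 36.4% elsewhere. The members' differences between labels are therefore given with and without that library. The 6 libraries held between 11168552 and 17883466 counts.

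The departure of that library followed the base composition of the members. Relative to the mean of VHL-KO replicates 1 and 2, it held 5.12 times as much Bckdha and 4.96 times as much Bcat2, but 0.158 times as much Dbt and 0.385 times as much Pcca. The coding sequence of Bckdha held 59.9% G and C and that of Bcat2 57.1%, whereas that of Dbt held 48.6% and that of Pcca 48.2%. To show the GC-rich end of the members, the last 150 coding bases in the final coding exon of Bckdha (GRCm38 chr7:25630266-25630415, minus strand, 62.7% G and C) are printed 5′ to 3′ from the reference, with G and C in capitals.
Bckdha: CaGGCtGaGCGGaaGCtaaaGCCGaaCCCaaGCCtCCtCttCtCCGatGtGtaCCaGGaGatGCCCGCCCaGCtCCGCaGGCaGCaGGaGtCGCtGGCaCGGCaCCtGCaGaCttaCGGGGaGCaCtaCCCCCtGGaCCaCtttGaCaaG
Bckdha and Dbt encode parts of the same enzyme complex, and in that library Bckdha was the highest and Dbt the lowest of the members relative to replicates 1 and 2.

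Over the 10 members, the rank correlation of that library's ratio with coding G and C content was 0.98 (Spearman's rho). It was 0.82 over the members and the 45 other tested genes of a wider pathway list, which also held transport genes and regulators. With transcript G and C content the rho was 0.87 over the members, 0.78 over the 55 genes and 0.74 over 13686 tested genes. Over those 13686 genes the rho with transcript length was -0.39. With coding content, VHL-KO replicate 1 against replicate 2 gave a rho of -0.30 over the members, whose ratios lay between 0.792 and 1.32. VHL-KO;SETD2-KO replicate 3 against the mean of replicates 2 and 4 of its label gave 0.65 over the members and 0.35 over the 55 genes. Its member ratios lay between 1.17 and 1.96, and with transcript content the rho over the members was 0.30. Replicate 2 against replicate 4 of that label gave 0.15 over the members with coding and 0.56 with transcript content. These are descriptions over genes that share the same libraries, and genes are not independent replicates.

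**Figure D1:**
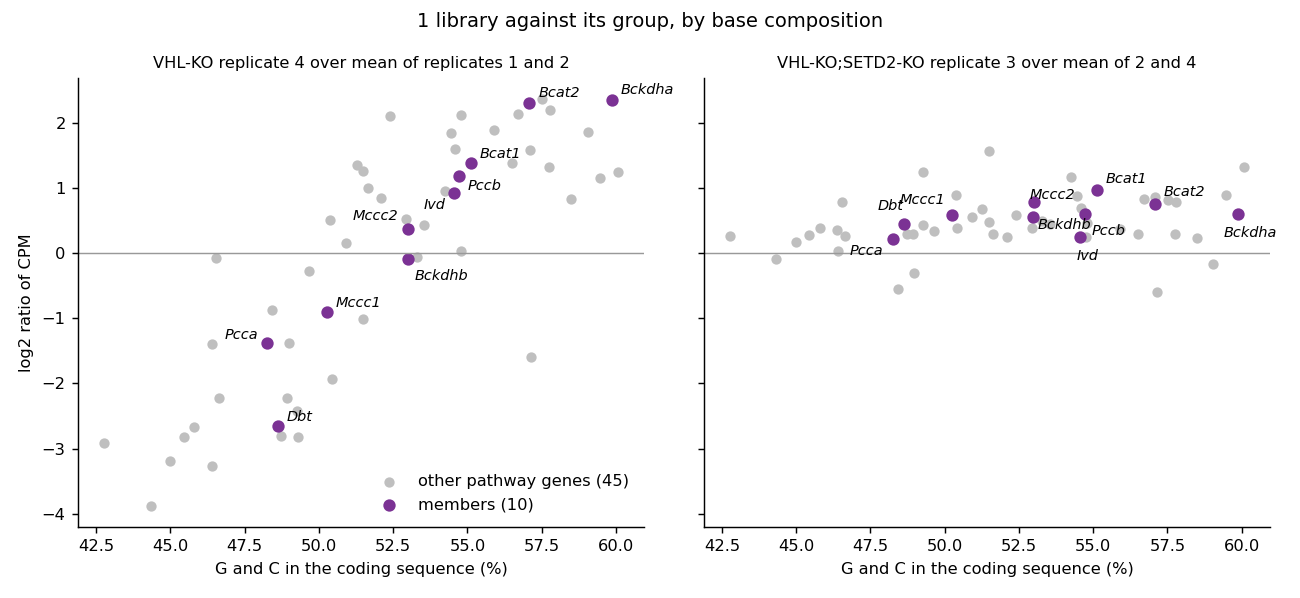
The log2 ratio of CPM in 1 library to the mean of the 2 others of its label (y axis) is plotted against G and C content of the coding sequence in percent (x axis), for the 10 members (purple, named) and 45 other pathway genes (grey). In the left panel, VHL-KO replicate 4, the members climb from Dbt and Pcca at the GC-poor end to Bcat2 and Bckdha at the GC-rich end, whereas in the right panel, VHL-KO;SETD2-KO replicate 3, all 10 members lie above 0, between 0.22 and 0.97, with a weaker climb.

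All 10 members had enough counts to be tested, among 14611 genes. None differed between the labels in edgeR at an adjusted p under 0.05 with a fold change of at least 1.5, in either direction. Over all tested genes that rule called 0.00% higher and 0.00684% lower under VHL-KO;SETD2-KO, 1 gene in all. By the same fold change with an unadjusted p under 0.05, 0 members were higher and 2 were lower, Bcat1 and Ivd (0 without VHL-KO;SETD2-KO replicate 2 or without its replicate 4), where the rule called 2.65% of all tested genes higher and 4.68% lower. All 10 log2 fold changes were negative, with a median of -0.49 against 0.01 over all tested genes. With VHL-KO replicate 4 left out, 9 were negative, with a median of -0.42 against 0.04. In that comparison 2 members were lower by the unadjusted rule (Ivd and Mccc1) and 1 was higher (Bcat2), against 7.14% of all genes lower and 8.29% higher, and 0 members passed an adjusted p (0.00% of all genes higher and 0.00667% lower). Bcat1 and Ivd were also the members whose values did not overlap between the labels, 2 lower and 0 higher, where 11.0% of all tested genes were lower and 9.62% higher without overlap. Without VHL-KO replicate 4, 5 members were lower without overlap (Bcat1, Dbt, Ivd, Mccc1 and Pcca) and Bcat2 was higher, against 21.2% and 20.5% of all genes.

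**Figure D2:**
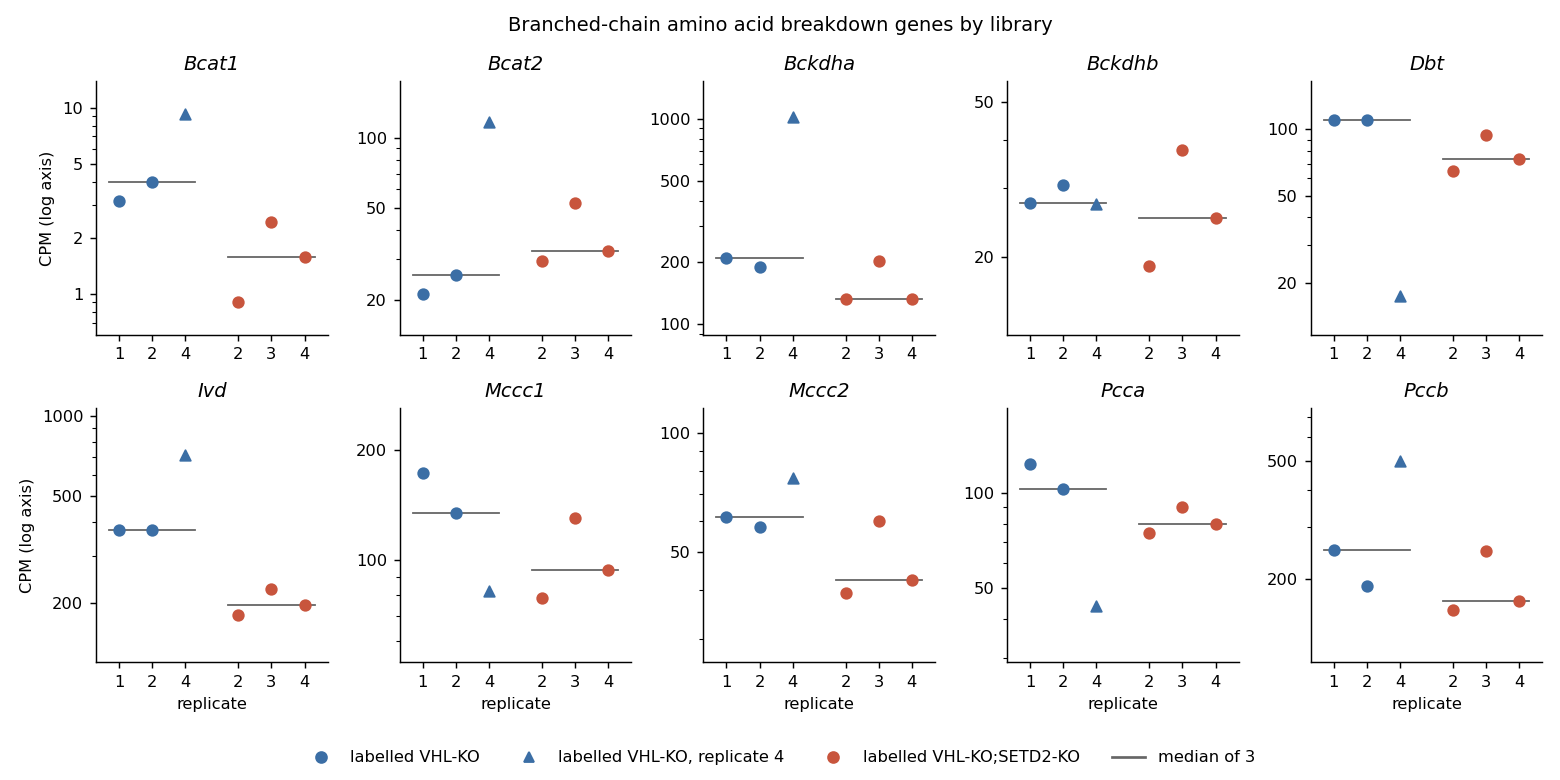
CPM of each of the 10 members (y axes, logarithmic, scaled separately) in the 3 VHL-KO libraries (blue, replicate 4 as a triangle) and the 3 of the VHL-KO;SETD2-KO label (red), with the median of 3 as a line. For Bcat1 and Ivd every red point is below every blue point, and the triangle is the highest blue point for 6 members and the lowest for 4.

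The first step is transamination. Bcat1, on chromosome 6 (GRCm38.p6 chr6:144993835-145076157), encodes the cytosolic aminotransferase, which most adult tissues hold in small amounts. It stood at 3.15, 3.98 and 9.26 CPM in VHL-KO replicates 1, 2 and 4, from 52, 43 and 99 counts. Under VHL-KO;SETD2-KO it stood at 0.903, 2.42 and 1.57 CPM, from 17, 43 and 25 counts. The groups did not overlap, and no other member had so few counts. Bcat1 was 3.33-fold lower under VHL-KO;SETD2-KO (log2 fold change -1.74, SE 0.62, unadjusted p = 0.0231, adjusted p = 0.625). The call ended when 1 library was left out, be it VHL-KO replicate 4 (log2 fold change -1.13, unadjusted p = 0.0562), VHL-KO;SETD2-KO replicate 2 (-1.42, unadjusted p = 0.0879) or VHL-KO;SETD2-KO replicate 4 (-1.68, unadjusted p = 0.0701).

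Bcat2, on chromosome 7 (chr7:45568967-45589710), encodes the mitochondrial aminotransferase, the main form outside the brain. Its values were 21.3, 25.7 and 116.6 CPM under VHL-KO and 29.6, 52.5 and 32.4 CPM under VHL-KO;SETD2-KO. VHL-KO replicate 4 was above all other libraries, and the other 2 of its label were below all 3 of the other. The sign of the difference therefore turned on 1 library. The log2 fold change was -0.52 over 6 libraries (95% interval -2.09 to 1.06, adjusted p = 0.801) and 0.70 over 5 (0.00 to 1.39, unadjusted p = 0.0499, adjusted p = 0.243). An antisense gene, 0610005C13Rik, shares 622 of the 3900 exonic bases of Bcat2. It had 368%, 264% and 187% as many counts as Bcat2 under VHL-KO and 126%, 116% and 119% under VHL-KO;SETD2-KO, without overlap. The part of this gene in the Bcat2 counts was not tested. Whether the counting used strand is not given in the sources used here, so the counts of both genes are uncertain.

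Within a library the ratio of the aminotransferases does not depend on scaling, but it carries the uncertainty of the Bcat2 counts given above. Bcat1 counts per Bcat2 count were 0.148, 0.155 and 0.0794 under VHL-KO and 0.0305, 0.0461 and 0.0484 under VHL-KO;SETD2-KO. All 3 of the latter were lower, by 1.58 on average on the log2 scale (two-sided exact permutation test, p = 0.1, the smallest that 3 against 3 libraries can give, and 0.25 after Benjamini-Hochberg adjustment over 5 ratios). Over 5 libraries, VHL-KO replicate 4 left out, the mean log2 difference was -1.89.

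The second step belongs to the branched-chain ketoacid dehydrogenase complex, of which Bckdha and Bckdhb encode the alpha and beta subunits of the decarboxylase (E1) and Dbt the dihydrolipoyl transacylase core (E2). None of the 3 passed either rule in edgeR, with or without VHL-KO replicate 4. Over 6 libraries the values of all 3 overlapped between the labels. Bckdha (chr7:25629852-25658782) stood at 209.0, 189.7 and 1020.4 CPM under VHL-KO and at 133.3, 202.2 and 133.2 CPM under VHL-KO;SETD2-KO. Its log2 fold change was -1.60 over 6 libraries (95% interval -3.24 to 0.05, unadjusted p = 0.0553, adjusted p = 0.625) and -0.36 over 5 (-0.92 to 0.21), so most of the difference came with VHL-KO replicate 4. With DESeq2 on 6 libraries Bckdha was lower by the unadjusted rule (-1.64, unadjusted p = 0.0146, adjusted p = 0.101), as were 7.75% of all genes. It was also lower in edgeR with an offset for transcript length and GC (-0.75, unadjusted p = 0.0391), as were 8.60% of all genes. It did not pass with limma-voom (-1.17, unadjusted p = 0.125) or with DESeq2 on 5 libraries (-0.36, unadjusted p = 0.181). The gene B3gnt8, on the opposite strand, covers 1171 of the 1899 exonic bases of Bckdha, and its counts were 0.439% to 1.12% of those of Bckdha. Because the strand setting is not given, low counts of B3gnt8 do not settle whether the overlap affected those of Bckdha.

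Bckdhb (chr9:83925111-84124240) was the steadiest member in the VHL-KO libraries, at 27.4, 30.6 and 27.3 CPM. Under VHL-KO;SETD2-KO it stood at 18.9, 37.7 and 25.1 CPM, on both sides of those values, with a log2 fold change of -0.06 (95% interval -0.97 to 0.85) over 6 libraries and -0.09 over 5. Dbt (chr3:116513070-116549981) stood at 110.2, 110.7 and 17.5 CPM under VHL-KO and at 64.8, 94.2 and 73.5 CPM under VHL-KO;SETD2-KO. VHL-KO replicates 1 and 2 were above all the libraries of the other label and replicate 4 was below them. The log2 fold change of Dbt was -0.04 over 6 libraries (adjusted p = 0.988) and -0.51 over 5, a 1.43-fold decrease that stayed under the fold threshold (unadjusted p = 0.0331, adjusted p = 0.211).

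The ratio of Bckdha to Bckdhb counts was 7.63, 6.19 and 37.4 under VHL-KO and 7.06, 5.36 and 5.31 under VHL-KO;SETD2-KO. Apart from VHL-KO replicate 4 the E1 subunits kept within 5.31 and 7.63 in all libraries, and the labels overlapped (mean log2 difference -1.04, exact permutation p = 0.2, adjusted 0.333; -0.23 without that library).

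**Figure D3:**
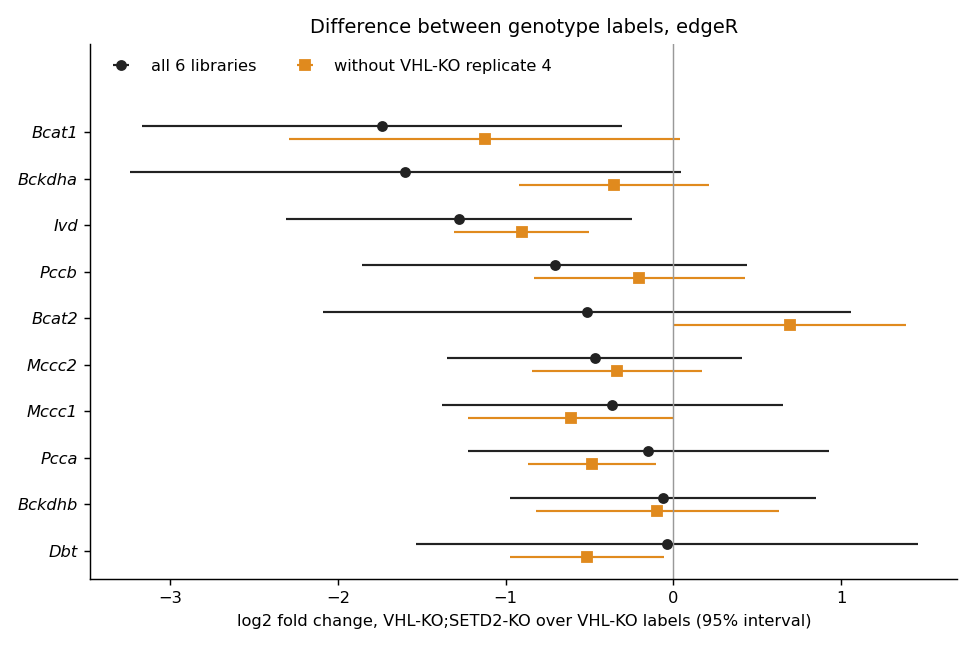
Log2 fold change between the labels (x axis, points) with its 95% interval from edgeR (bars), for each member (y axis) over all 6 libraries (black circles) and without VHL-KO replicate 4 (orange squares). Every black circle is below 0, and the 2 fits disagree in sign for Bcat2 and come closest for Bckdhb, Mccc2 and Mccc1.

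In the leucine branch, Ivd (chr2:118861959-118882909) encodes isovaleryl-CoA dehydrogenase, the mitochondrial flavoprotein that oxidises isovaleryl-CoA. It was the member with the clearest difference. Ivd stood at 374.1, 375.5 and 710.6 CPM under VHL-KO and at 180.6, 224.6 and 196.7 CPM under VHL-KO;SETD2-KO. The lowest VHL-KO library was above the highest of the other label, and VHL-KO replicates 1 and 2 were almost the same. Ivd was 2.43-fold lower under VHL-KO;SETD2-KO (log2 fold change -1.28, SE 0.45, unadjusted p = 0.0209, adjusted p = 0.625). Without VHL-KO replicate 4 it was 1.87-fold lower (log2 fold change -0.91, SE 0.17, unadjusted p = 0.00156, adjusted p = 0.0869), a smaller difference with a smaller error that missed the adjusted threshold in edgeR. On the same 5 libraries DESeq2 gave Ivd a log2 fold change of -0.91 with an adjusted p of 3.11e-05, and on 6 libraries limma-voom with sample quality weights gave -0.97 with an adjusted p of 0.00517. These settings also called many more genes, 4.71% and 8.25% of those tested lower by the adjusted rule. They were the only 2 of 17 refits in which Ivd passed an adjusted p. On 6 libraries the adjusted p of Ivd was 0.0759 with DESeq2, 0.692 with limma-voom without weights and 0.218 in edgeR with an offset for transcript length and GC. In edgeR the unadjusted call ended with the replicate number as a block (log2 fold change -1.45, SE 1.24, unadjusted p = 0.239). It also ended without VHL-KO;SETD2-KO replicate 2 (log2 fold change -1.19, unadjusted p = 0.0904) or its replicate 4 (-1.24, unadjusted p = 0.0843), but not without its replicate 3 (-1.35, unadjusted p = 0.0443). Summed proximal tubule markers were also lower in the same 3 libraries, at 7088 to 10085 CPM against 16119 to 28116 CPM.

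Mccc1 and Mccc2 encode the biotin-carrying alpha and the beta subunit of methylcrotonyl-CoA carboxylase, which acts after Ivd. Mccc1 (chr3:35956292-36000694) stood at 173.6, 134.2 and 82.3 CPM under VHL-KO and at 78.8, 130.1 and 93.8 CPM under VHL-KO;SETD2-KO. The log2 fold change was -0.37 over 6 libraries (adjusted p = 0.785) and -0.61 over 5 (unadjusted p = 0.0497, adjusted p = 0.243), where the groups separated by a narrow gap. Mccc2 (chr13:99948532-100015639) stood at 61.4, 57.7 and 77.1 CPM under VHL-KO and at 39.4, 60.0 and 42.4 CPM under VHL-KO;SETD2-KO. One library of the latter, replicate 3, lay within the range of the former, and the log2 fold change was -0.47 (95% interval -1.35 to 0.41) over 6 libraries and -0.34 over 5. The ratio of Mccc1 to Mccc2 counts was 2.83, 2.32 and 1.07 under VHL-KO and 2.00, 2.17 and 2.21 under VHL-KO;SETD2-KO. These did not separate (mean log2 difference 0.15, exact permutation p = 1), and the difference was -0.27 without VHL-KO replicate 4.

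At the propionyl-CoA step, Pcca encodes the biotin-carrying alpha subunit and Pccb the beta subunit of propionyl-CoA carboxylase. Pcca (chr14:122484365-122889944) stood at 123.6, 103.2 and 43.7 CPM under VHL-KO and at 74.4, 90.0 and 79.6 CPM under VHL-KO;SETD2-KO. As for Dbt, VHL-KO replicates 1 and 2 were above the other label and replicate 4 was below it. The log2 fold change was -0.15 over 6 libraries (adjusted p = 0.915) and -0.48 over 5 (unadjusted p = 0.0211, adjusted p = 0.182), a 1.40-fold decrease under the fold threshold. The opposite-strand gene Ggact shares 241 of the 5210 exonic bases of Pcca, with 33.2% to 148% as many counts. Pccb (chr9:100982032-101034940) stood at 250.5, 189.9 and 500.3 CPM under VHL-KO and at 158.1, 248.9 and 168.8 CPM under VHL-KO;SETD2-KO, and the groups overlapped. Its log2 fold change was -0.71 (95% interval -1.86 to 0.44) over 6 libraries and -0.20 over 5. The ratio of Pcca to Pccb counts was 0.493, 0.543 and 0.0873 under VHL-KO and 0.471, 0.362 and 0.472 under VHL-KO;SETD2-KO (mean log2 difference 0.59, exact permutation p = 1; -0.26 without VHL-KO replicate 4).

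**Figure D4:**
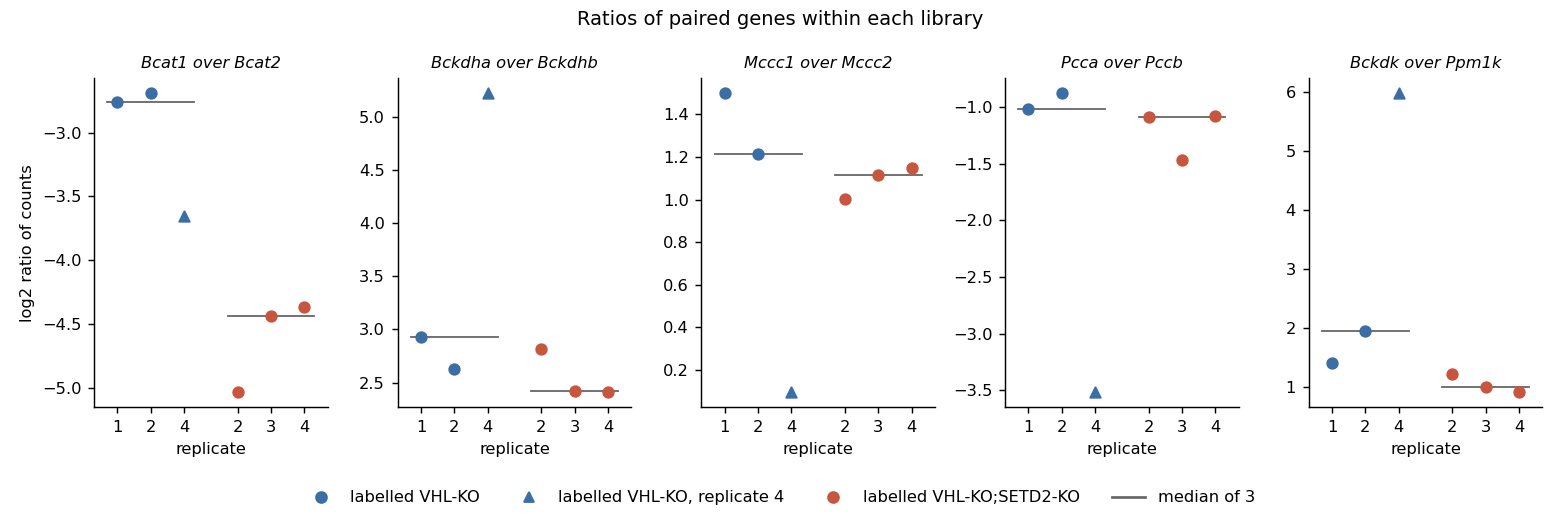
Log2 ratio of the counts of 2 genes within each library (y axes, scaled separately) for 4 pairs of members and for Bckdk over Ppm1k, with symbols as in the plot of CPM by library. Bcat1 over Bcat2 is lower in all 3 red libraries, and VHL-KO replicate 4 (triangle) lies far from the 2 other blue points in all 5 panels.

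Compared per length, as CPM per kilobase of the longest annotated transcript (RPKM), the members fell into 3 tiers by median. That transcript was 7.833 kb long for Bcat1, 6.751 kb for Mccc1 and 2.123 kb for Mccc2, and the order depends on this choice of transcript. Medians over 6 libraries were 103 RPKM for Bckdha, 94.6 for Pccb and 81.7 for Ivd. The middle tier ran from 32.7 RPKM for Pcca through Mccc2 (27.7), Dbt (25.4), Bckdhb (18.5) and Mccc1 (16.6) to 14.9 for Bcat2. Bcat1 was far below at 0.356 RPKM. In the 5 libraries without VHL-KO replicate 4, neighbours in this order overlapped in range except at 2 places, between Ivd and Pcca and between Bcat2 and Bcat1. The gap between Ivd and Pcca was narrow, with the lowest Ivd at 49.3 RPKM and the highest Pcca at 47.7 RPKM.

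The activity of the complex is set by Bckdk, the kinase that inactivates E1, and Ppm1k, the phosphatase that reactivates it. Bckdk stood at 42.7, 44.9 and 189.5 CPM under VHL-KO and at 35.8, 42.4 and 36.0 CPM under VHL-KO;SETD2-KO, with a log2 fold change of -1.28 (adjusted p = 0.625) over 6 libraries and -0.21 over 5. Ppm1k stood at 16.2, 11.7 and 2.99 CPM under VHL-KO and at 15.3, 21.2 and 19.2 CPM under VHL-KO;SETD2-KO, with a log2 fold change of 0.85 (adjusted p = 0.656) and 0.41 over 5. Neither passed the test. The ratio of Bckdk to Ppm1k counts was 2.64, 3.85 and 63.3 under VHL-KO and 2.34, 2.00 and 1.88 under VHL-KO;SETD2-KO, lower in all 3 of the latter (mean log2 difference -2.07, exact permutation p = 0.1, adjusted 0.25). Without VHL-KO replicate 4 the mean log2 difference shrank to -0.63.

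Among the other genes listed with the pathway, 45 of 46 were tested. The list was mixed. Beside enzymes of the breakdown it held 9 transport genes, 3 regulators and 6 genes of biotin supply and other biotin carboxylases. Of the 45 log2 fold changes 33 were negative, with a median of -0.27, where 49.5% of all tested genes were negative. By the unadjusted rule 0 were higher and 3 were lower, Pcx and Slc6a20b among them, and 0 passed an adjusted p. The 3 were 6.67% of those tested, near the 4.68% of all genes called lower. Over the 5 libraries without VHL-KO replicate 4, 7 were lower and 1 was higher, again with 0 after adjustment, against 7.14% of all genes lower and 8.29% higher, and 34 were negative, against 46.9% of all genes. Of those 7 lower genes, 4 were among the 10 genes of the valine and isoleucine steps and 2 among the 3 electron acceptor genes that take electrons from Ivd and related dehydrogenases. A further 9 genes were grouped around the conversion of propionyl-CoA to succinyl-CoA. Beside the enzymes of that conversion, the group held genes for cobalamin (vitamin B12) handling and for succinyl-CoA ligase, which uses succinyl-CoA. None of the 9 passed in either comparison, although 9 of 9 were negative without that library, between -0.49 and -0.04.

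Pcx, the biotin enzyme pyruvate carboxylase, stood at 624.9, 541.9 and 2680.3 CPM under VHL-KO and at 290.9, 518.2 and 310.3 CPM under VHL-KO;SETD2-KO, with a log2 fold change of -1.78 (adjusted p = 0.625), which was -0.65 (unadjusted p = 0.0696) over 5. Slc6a20b, an amino acid transporter gene, stood at 193.2, 202.2 and 265.9 CPM under VHL-KO and at 82.3, 126.7 and 103.1 CPM under VHL-KO;SETD2-KO. Its difference resembled that of Ivd in size over 5 libraries (log2 fold change -0.93, adjusted p = 0.108) and was -1.08 over 6 (adjusted p = 0.625).

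Some markers of kidney cell types also differed between the labels. Of 10 proximal tubule markers, among them Lrp2, Cubn and Slc34a1, 9 had a lower mean under VHL-KO;SETD2-KO and 4 were lower by the unadjusted rule (7 without VHL-KO replicate 4), with a median log2 fold change of -1.10 (-0.90 without it). Their summed level was 16119 to 28116 CPM under VHL-KO and 7088 to 10085 CPM under VHL-KO;SETD2-KO. The highest sum, in VHL-KO replicate 4, held 14206 CPM of Slc34a1 alone, against 4979 and 4759 CPM in replicates 1 and 2. Lrp2 stood at 940 CPM in that library against 3384 and 3351 CPM, and Cubn at 292 CPM against 562 and 732 CPM. The other proximal tubule markers there also went both ways. Without VHL-KO replicate 4 the VHL-KO sums were 16119 and 16762 CPM. Of 4 podocyte markers 3 were higher by that rule with and without that library, with sums of 1303 to 1765 CPM in both cases against 1666 to 4380 CPM. All 4 endothelial markers had a higher mean (777 to 1497 CPM, or 1295 to 1497 without that library, against 1090 to 3678 CPM) with 0 called in both cases. Cdh16, whose promoter drives Cre, stood between 517 and 2257 CPM under VHL-KO (517 and 531 without that library) and between 332 and 684 CPM under VHL-KO;SETD2-KO. No marker of these lists was at 0 in any library. In such bulk samples, fewer cells of a type and less RNA per cell cannot be told apart.

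Of the lists above, only the proximal tubule sums separated by label. Podocyte, endothelial and Cdh16 levels overlapped with and without VHL-KO replicate 4. For the remaining lists the summed levels also overlapped over all 6 libraries, but for 2 of them that rested on VHL-KO replicate 4. Summed levels of 3 distal convoluted tubule markers were 462 to 1728 CPM under VHL-KO (462 to 566 without replicate 4) and 728 to 1694 CPM under VHL-KO;SETD2-KO, with 0 called over 6 libraries and 1 higher over 5. Those of 4 collecting duct intercalated markers were 9.70 to 43.8 CPM (9.70 to 30.8 without it) and 42.7 to 102 CPM, with 2 called higher in both comparisons. The sums of these segments were thus higher under VHL-KO;SETD2-KO in the 5 libraries, without overlap. Thick limb markers summed to 728 to 3061 CPM (728 to 1305 without it) and 726 to 2179 CPM, with 1 of 4 called higher in both comparisons. For collecting duct principal cells the sums were 43.2 to 415 CPM (43.2 to 48.8 without it) and 43.4 to 157 CPM, and the median log2 fold change turned from -0.74 with 0 called to 2.29 with 2 of 4 called higher. Immune markers summed to 18.1 to 87.0 CPM (33.6 to 87.0 without it) and 16.3 to 76.1 CPM, with 0 called over 6 libraries and 1 lower over 5. Fibroblast markers summed to 38.6 to 184 CPM (38.6 to 60.5 without it) and 32.9 to 126 CPM, with 0 called in both comparisons. The part of these cell types in the members' values was not tested.

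Set against the geometric mean of the 10 proximal tubule markers in the same library, Ivd overlapped between the labels. Per 1000 CPM of that mean, Ivd stood at 344, 374 and 566 under VHL-KO and at 372, 304 and 331 under VHL-KO;SETD2-KO (log2 difference -0.32, exact permutation p = 0.2; -0.10 without VHL-KO replicate 4). On the same scale 7 of the 10 members had positive log2 differences, the opposite sign to their CPM. Dbt, for example, stood at 101, 110 and 13.9 under VHL-KO and at 134, 128 and 124 under VHL-KO;SETD2-KO, and Mccc2 at 56.4, 57.5 and 61.3 against 81.2, 81.4 and 71.3. Bcat1, Bckdha and Ivd kept a negative sign over 6 libraries, and Bcat1 and Ivd over 5. The part of proximal tubule cell content in the lower CPM of Ivd was not tested beyond these ratios.

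**Figure D5:**
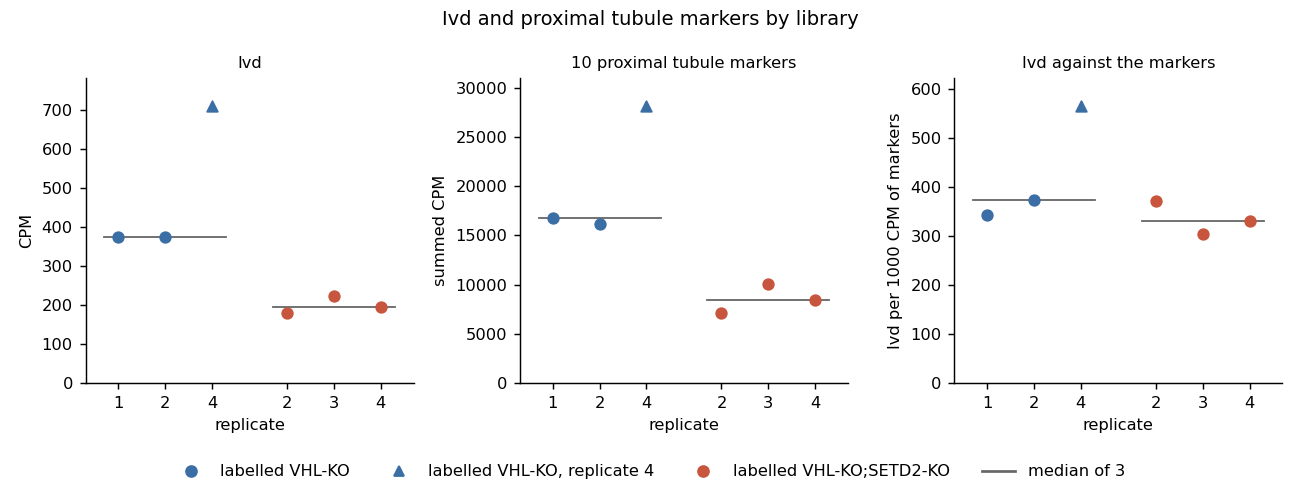
Ivd in CPM (left), the summed CPM of 10 proximal tubule markers (middle) and Ivd per 1000 CPM of the markers' geometric mean (right) in each library, with symbols as in the plot of CPM by library and y axes from 0. The labels separate in the left and middle panels and overlap in the right panel.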

How the data were processed

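RNA-seq counts were analysed for mouse PTECs of the VHL-KO label (3 libraries) and of the VHL-KO;SETD2-KO label (3 libraries). The authors prepared libraries with a directional kit, sequenced paired ends and deposited raw counts per gene symbol, in which no normalization had been applied. The submitters' processing notes name HISAT2 2.0.4 and GRCm38. The counting program, annotation and strand setting are not given in the sources used here. No per-sample column was left unused. Replicates came from separate mice as far as the paper's text says, and p-values measure the spread between these libraries, which may be partly technical.

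The deposited counts were scaled by TMM and tested with edgeR's quasi-likelihood method (edgeR 4.0.16, R 4.3.3) over all 14611 genes that passed filterByExpr, with Benjamini-Hochberg adjustment over them. The paper's rule, a fold change of 1.5 or more with p under 0.05, was applied to unadjusted and to adjusted p-values. The paper does not say which was meant and used DESeq2, which was an alternative here (1.42.0), as was limma 3.58.1. Ratios of gene pairs were compared by two-sided exact permutation tests. The members, the 46 other pathway genes and the marker lists were chosen with earlier results of these data known. Of the other pathway genes, Bckdk and Ppm1k and those with an unadjusted p under 0.05 were named (except 1, not reported here), and genes of the remaining lists only as examples. The ratios to proximal tubule markers, an offset for GC and length of transcripts, and DESeq2 on 5 libraries were chosen after seeing the data. Transcript lengths, coding sequences and exon overlaps came from GENCODE M21 and gene positions from RefSeq (GRCm38.p6), the source of the 35 mitochondrially encoded genes too. Levels per length used the longest annotated transcript of each gene, not the isoforms present. Fits were tested on simulated data with known changes.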

Additional observations from a re-analysis of the deposited data

How the results depend on the processing

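Ivd and Bcat1 kept a lower level under the VHL-KO;SETD2-KO label in 17 of 17 refits of the whole table, and each had an unadjusted p under 0.05 in 14. Signs turned positive for Bcat2 with voom quality weights (log2 fold change 0.46), with an offset for length and GC (0.20) and with DESeq2 on 5 libraries (0.69), for Bckdhb with the offset (0.14) and for Dbt with limma-voom (0.36). Against proximal tubule markers they turned positive for Bcat2 (0.78), Bckdhb (0.78), Dbt (1.25), Mccc1 (0.57), Mccc2 (0.41), Pcca (0.88) and Pccb (0.28). Members lower by the unadjusted rule numbered 2, but 3 with DESeq2 (7.75% of all genes lower), 4 with quality weights (10.5%) and 4 with the offset (8.60%). With DESeq2 on 5 libraries 3 were lower (7.29% of all genes lower) and 1 was higher (9.50% of all genes higher). By adjusted p, 4 were lower with quality weights (Bcat1, Dbt, Ivd and Mccc1, against 8.25% of all genes) and 1 with DESeq2 on 5 libraries (Ivd, against 4.71%), where edgeR called 0.00684% of all genes lower. Other pathway genes lower by the unadjusted rule numbered 3, but 6 with DESeq2 (7.75% of all genes) and 1 with limma-voom (3.33%). They numbered 13 with quality weights (10.5%), 10 with the offset (8.60%) and 8 with DESeq2 on 5 libraries (7.29%). With each of the last 3 settings 1 was higher, against 14.5%, 5.65% and 9.50% of all genes. The causes of these changes were not tested, beyond the fewer libraries or weights that the settings themselves bring.

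Leaving out 1 library at a time gave 0 to 3 members lower and 0 to 1 higher, and 0 to 7 other pathway genes lower and 0 to 1 higher. The 0 lower in both cases came without VHL-KO;SETD2-KO replicate 2 or 4 and the 1 higher without VHL-KO replicate 4. All genes varied too. Those with an unadjusted p under 0.05, in either direction and at any fold change, numbered 385 of 15010 and 455 of 15088 without VHL-KO;SETD2-KO replicate 2 or 4. Without its replicate 3 there were 682 of 14928. They numbered 1181 of 15139, 1473 of 15164 and 3080 of 15000 without VHL-KO replicate 1, 2 or 4. Because these counts lack the fold threshold, the counts of members lower or higher cannot be read directly against them. By the full rule the share of all genes was taken only without VHL-KO replicate 4 (7.14% lower and 8.29% higher). Members without overlap numbered 2 to 6 lower, most without VHL-KO;SETD2-KO replicate 3, and 0 to 1 higher. With 1 library left out, the share over all genes was taken only without VHL-KO replicate 4 (21.2% lower and 20.5% higher). The other counts without overlap therefore cannot be read against all genes. The log2 fold change ranged from -0.87 to 0.70 for Bcat2, -0.36 to 0.15 for Bckdhb, -0.51 to 0.28 for Dbt and -0.48 to 0.15 for Pcca, and the members' median from -0.73 to -0.34. The log2 difference of Mccc1 over Mccc2 ranged from -0.27 to 0.43 and that of Pcca over Pccb from -0.26 to 1.06, the negative end without VHL-KO replicate 4 in both.

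Replicate numbers 2 and 4 occur under both labels, and deviations of same-numbered libraries from their group means correlated at 0.16 and -0.32. With so few libraries, and VHL-KO replicate 4 standing apart, these values cannot decide whether same-numbered samples were paired. The labels give only the number. With the replicate number as a block, 1 member, Bcat1, was lower by the unadjusted rule and 0 other pathway genes (0.370% of all genes). Ivd did not pass there. The members' median was -0.77, and Dbt (0.64) and Pcca (0.20) turned positive. Depth limits Bcat1 most, at 17 to 99 counts per library.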

Other observations

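Replicate 3 of the VHL-KO;SETD2-KO label held more of every member than the mean of replicates 2 and 4 of its label, from 1.17 times for Pcca to 1.96 times for Bcat1. Podocyte markers summed to 1666 CPM in that library against 4380 and 3885 CPM in the other two, and endothelial markers to 1090 CPM against 3678 and 2969 CPM. The 10 proximal tubule markers summed to 10085 CPM against 7088 and 8487 CPM. The part of these cell types in the members' values was not tested.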
